A study of Homo sapiens with 12 samples.

Results

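The annexins are the calcium-dependent, phospholipid-binding proteins encoded by the ANXA genes. The 10 genes described here are ANXA1, ANXA2, ANXA3, ANXA4, ANXA5, ANXA6, ANXA7, ANXA8, ANXA8L1 and ANXA11, out of 60754 genes with a value in each library. They were taken by gene name, with earlier results of these data known. The family members ANXA9, ANXA10 and ANXA13 are not among them and are given at the end. ANXA8 and ANXA8L1 are near-identical copies and were summed, so that 9 values per library were tested. All 10 genes had counts in the data, and all 9 values passed the filter on low counts that left 13421 protein-coding genes for the tests.

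The libraries were RNA sequencing of 2 human AML cell lines after 36 h with or without duocarmycin SA (DSA), a minor groove binder that alkylates adenine in DNA. HL-60 cells were cultured with 112.7 pM (low) or 500 pM (high) DSA or with none, and Molm-14 cells with 11.1 pM (low) or 100 pM (high) DSA or with none. Each of the 6 groups had 2 libraries. The labels call the controls untreated, whereas the methods of the study name vehicle or DSA. HL-60 is a promyelocyte-like line with amplified MYC and no p53, and Molm-14 is a monocytic line with an MLL fusion and an internal tandem duplication of FLT3. Each line stands for a single leukaemia, and the lines were grown in different media with different serum content, so line and medium cannot be told apart. The doses also differed between the lines, and were nearest at 112.7 pM in HL-60 and 100 pM in Molm-14 cells. Nothing in the labels says that the 2 libraries of a group came from separate cultures, and the p-values therefore measure only the spread between these libraries, which may be technical.

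An annexin folds around a core of repeats whose loops hold calcium against acidic phospholipids such as phosphatidylserine, while its N-terminal tail differs between members and binds partner proteins. In myeloid cells, ANXA1 is known as an inhibitor of leukocyte recruitment that acts through formyl peptide receptors. ANXA2 is known as a surface receptor for plasminogen in complex with S100A10, and labelled annexin A5 protein is the common stain for phosphatidylserine on dying cells. The remaining members are known for membrane fusion, endosome traffic and repair of torn plasma membranes.

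On hg38, in the coordinates of GENCODE release 44, ANXA1 lies on chromosome 9 from 73151865 to 73170393 and ANXA2 on chromosome 15 from 60347134 to 60402883. ANXA3 lies on chromosome 4 from 78551747 to 78610451 and ANXA5 on the same chromosome from 121667946 to 121696995. ANXA4 lies on chromosome 2 from 69644425 to 69827112, and ANXA6 on chromosome 5 from 151100706 to 151157815. The other members are all on chromosome 10, with ANXA8L1 from 46375627 to 46391784, ANXA8 from 47460162 to 47484158, ANXA7 from 73375101 to 73414076 and ANXA11 from 80150889 to 80205572. All are annotated as protein-coding, and the values below are counts over all exons of a gene.

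ANXA1 and ANXA2 had the largest fold changes among the members that reached 50 TPM, and their upstream sequences are shown for that reason. RefSeq windows of 250 bases before to 50 after a start (GRCh38.p14) were at hand for 9 of the 10 genes, as 13 windows, and the 250 upstream bases of ANXA1 (chr9:73151615-73151864, plus strand) and ANXA2 (chr15:60397987-60398236, minus strand) read as follows, with matches on either strand in capitals. The motifs searched were TGANTCA (the AP-1 site), the CCAAT box, the letters TATAAA (the TATA box) and the Sp1 motif GGGCGG.
ANXA1: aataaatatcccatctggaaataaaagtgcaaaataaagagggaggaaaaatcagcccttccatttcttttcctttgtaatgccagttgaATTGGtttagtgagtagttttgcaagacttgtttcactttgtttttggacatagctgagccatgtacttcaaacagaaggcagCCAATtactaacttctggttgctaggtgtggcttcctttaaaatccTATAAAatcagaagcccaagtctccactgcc
ANXA2: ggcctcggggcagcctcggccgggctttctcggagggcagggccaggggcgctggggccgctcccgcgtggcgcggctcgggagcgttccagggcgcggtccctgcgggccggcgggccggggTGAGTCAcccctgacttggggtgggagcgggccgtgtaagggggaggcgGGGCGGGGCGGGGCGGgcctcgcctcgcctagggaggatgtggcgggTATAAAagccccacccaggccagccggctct

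Both windows hold TATAAA at -31, counted to its start from the annotated start of transcription, a position at which 132 of 35116 RefSeq windows (0.376%) hold it on the transcribed strand. The rest of the sequences differ. The 300-base window of ANXA1 has a GC content of 37.7% and that of ANXA2 76.0%, against a median of 58.7% over all windows. ANXA1 has CCAAT at -160, on the opposite strand, and at -77. ANXA2 has TGANTCA, which is its own reverse complement, at -127, and overlapping copies of GGGCGG at -78, -73 and -68. Over all windows TGANTCA was found in 7.71%, the CCAAT box in 34.6%, the letters TATAAA in 11.5% and the motif GGGCGG in 45%. ANXA2 was the only member with TGANTCA in its windows, and the window of ANXA3 matched none of the 4 motifs. These matches are descriptions of the letters and say nothing of which factor binds.

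The depth of the 12 libraries lay between 21177424 and 63927449 expected counts (median 35957896.5). The markers chosen for the lines matched only in part. Of 5 promyelocyte genes, MPO and PRTN3 were higher and ELANE, AZU1 and CTSG lower in HL-60 than in Molm-14 controls (log2 differences of -1.07, -2.89 and -1.82 for these 3), whereas all 4 Molm-14 markers were lower in HL-60. MPO, the peroxidase of promyelocyte granules, had 15710 and 15650 CPM (counts scaled to library size with TMM factors) in HL-60 controls and 154 and 144 CPM in Molm-14 controls, whereas HOXA9, a target of MLL fusions, had 0.0268 and 0.0848 CPM in HL-60 controls and 118 and 120 CPM in Molm-14 controls.

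The comparison of untreated cells shows how differently the lines are stocked with annexins. On TPM, the length-scaled unit in which genes can be compared, ANXA6 (163 ± 13.2, SD, n = 2), ANXA11 (139 ± 5.39) and ANXA1 (111 ± 4.14) led in HL-60 controls, whereas ANXA4 (490 ± 2.14) alone made up 49.8% and 49.9% of all annexin TPM in the Molm-14 controls. The summed annexin TPM was 605 ± 11.3 in HL-60 and 983 ± 4.98 in Molm-14 controls. By edgeR's quasi-likelihood test with Benjamini-Hochberg adjusted p under 0.05, 2 members were higher and 6 lower in HL-60 than in Molm-14 controls, where 43.9% of all tested genes were higher and 40% lower. By more than 2-fold, 2 were higher and 3 lower (16.5% and 20.6% of all genes). The median log2 difference was -0.23 for the members against 0.06 for all genes.

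ANXA4, a membrane-ordering annexin best known from epithelia, had 14.8 and 12.4 TPM in HL-60 controls and 492 and 489 TPM in Molm-14 controls. ANXA2 had 1.33 and 1.78 TPM in HL-60 controls and 60.9 and 60.4 TPM in Molm-14 controls. These gaps are the widest of the family, with log2 differences of -5.22 ± 0.04 (SE) for ANXA4 and -5.38 ± 0.08 for ANXA2 (adjusted p = 1.31e-24 and 1.82e-21). ANXA8 + ANXA8L1 was also lower in HL-60 controls, at 0.340 and 0.200 TPM against 3.24 and 3.43 TPM in Molm-14 controls (log2 difference -3.78 ± 0.20, adjusted p = 1.36e-12).

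The reverse was measured for ANXA1 and ANXA6. ANXA1 had 108 and 114 TPM in HL-60 controls and 17.9 and 16.9 TPM in Molm-14 controls (log2 difference 2.60 ± 0.06, adjusted p = 1.88e-18). ANXA6, which carries a duplicated core and is known for its part in cholesterol traffic and late endosomes, had 172 and 154 TPM in HL-60 controls and 57.6 and 54.5 TPM in Molm-14 controls (log2 difference 1.52 ± 0.04, adjusted p = 5.16e-17). The lines were close for the broadly expressed ANXA5, ANXA7 and ANXA11, all lower in HL-60 controls by edgeR, with log2 differences of -0.18, -0.37 and -0.23. ANXA3 was scarce in both lines, at 1.01 and 0.980 TPM in HL-60 and 1.18 and 1.44 TPM in Molm-14 controls, and was not called (adjusted p = 0.78).

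**Figure D1:**
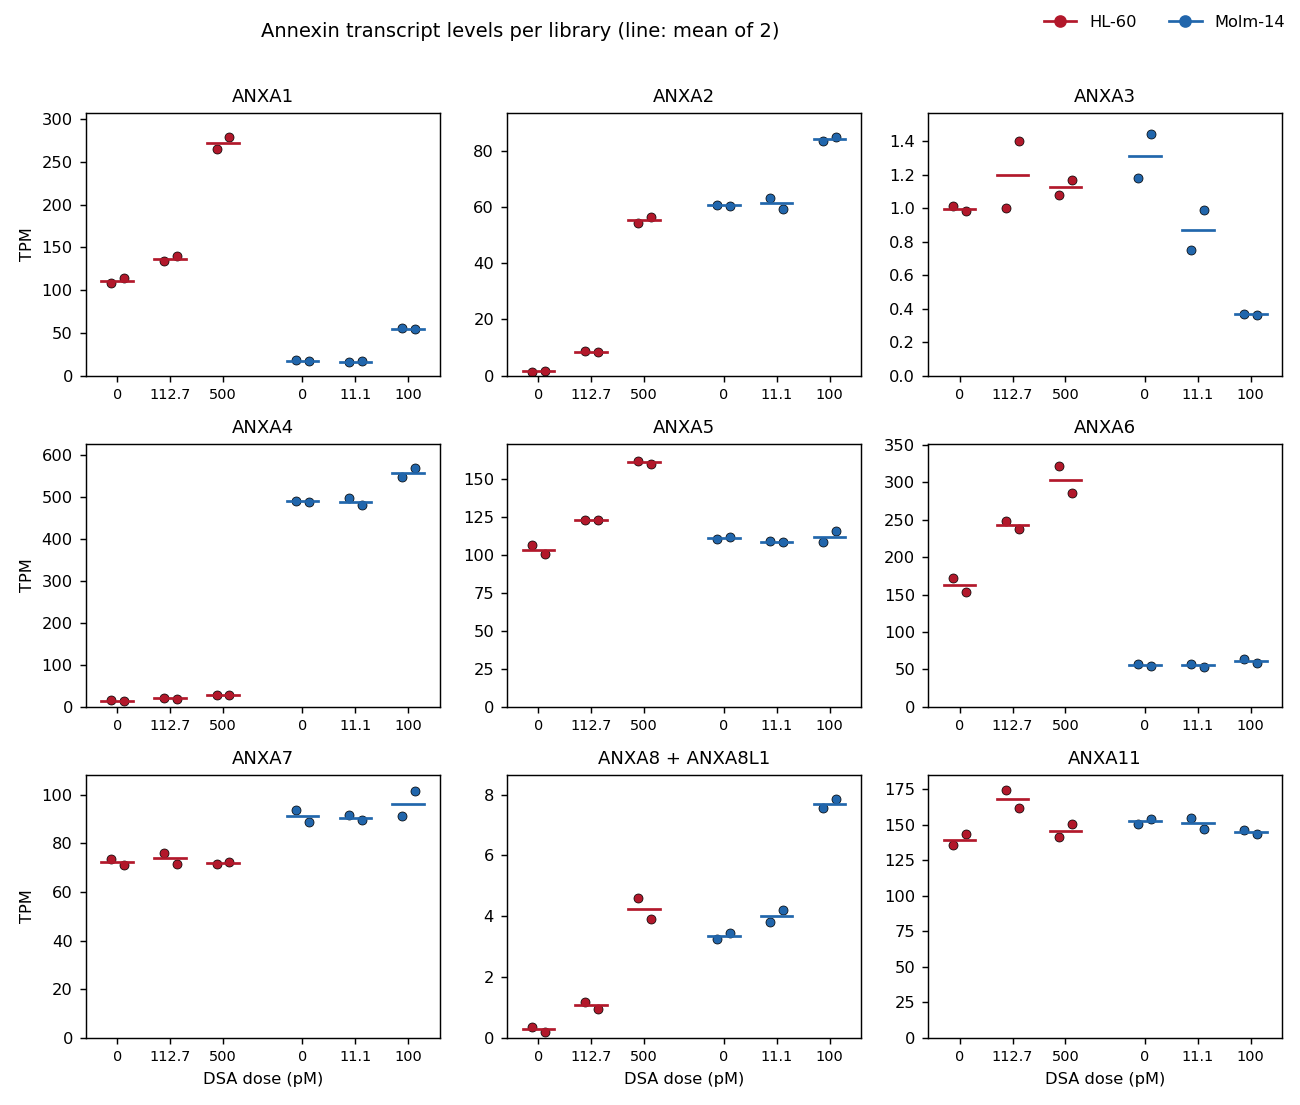
TPM of each annexin in every library (points) with the mean of the 2 libraries of a group (line), by DSA dose in pM, for HL-60 (left of each panel) and Molm-14 cells (right). In HL-60 cells ANXA2 is at 1.33 and 1.78 TPM without DSA and at 54.2 and 56.6 TPM at 500 pM, and ANXA4 in HL-60 cells (at most 28.0 TPM) is far below every Molm-14 library (at least 482 TPM).

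In HL-60 cells most annexins were higher with DSA, and they were higher at the higher dose. At 500 pM, 6 of the 9 values were higher than in the controls and none was lower (35.8% of all genes higher, 37.8% lower), and 3 of the 6 exceeded a fold change of 2, as did 16.5% of all genes in that direction and 2.05% in the other. The median log2 fold change was 0.83 for the members and 0.00 for all genes. At 112.7 pM, 7 were higher and none lower (24.2% and 27.4% of all genes), 2 of them by more than 2-fold (5.57% of all genes, and 0.291% lower by as much), with a median of 0.35 against 0.00. These comparisons share the control libraries.

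ANXA2, the plasminogen and S100A10 binder, changed most. It had 1.33 and 1.78 TPM in the controls, 8.60 and 8.52 TPM at 112.7 pM and 54.2 and 56.6 TPM at 500 pM, from 55, 102, 202, 280, 1176 and 1871 counts in the same order. Each dose lay above the one before with no overlap between libraries. The log2 fold change against the controls was 2.55 ± 0.11 (SE) at 112.7 pM and 5.11 ± 0.08 at 500 pM (adjusted p = 1.38e-11 and 3.44e-19), a 34.5-fold increase at the high dose. The step from 112.7 to 500 pM was 2.56 ± 0.07 (adjusted p = 3.70e-15).

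Reads of ANXA2 can also come from its processed pseudogenes, which lack introns. ANXA2P2 is 98.4% identical to ANXA2 over 1020 aligned bases, and it took 6.18% and 5.58% of the reads of the pair in HL-60 cells at 500 pM and 1.79% and 1.95% in the HL-60 controls. With the counts of ANXA2 and its 3 pseudogenes summed, no call of ANXA2 changed.

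ANXA8 + ANXA8L1, whose products are known from late endosomes and, for ANXA8, from acute promyelocytic leukaemia, had 0.340 and 0.200 TPM in HL-60 controls, 1.19 and 0.960 TPM at 112.7 pM and 4.59 and 3.89 TPM at 500 pM. The groups did not overlap, and the log2 fold change was 1.95 ± 0.27 at 112.7 pM and 3.88 ± 0.21 at 500 pM (adjusted p = 8.27e-06 and 4.01e-12). The counts behind it were low, with 21 and 17 in the controls and 133 and 185 at 500 pM.

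RSEM divides the reads of the copies between them, and this split was not stable in HL-60 cells. The transcripts of ANXA8 and ANXA8L1 differ at 13 of 2174 aligned bases (99.4% identical). ANXA8L1 was given 0% and 6.71% of the summed counts in HL-60 controls, 1.53% and 49.6% at 112.7 pM and 44.2% and 36.9% at 500 pM, so that the 2 libraries at 112.7 pM stood far apart. In Molm-14 cells the share ran only from 5.75% to 8.84%. ANXA8L1 alone had 0 and 1.14 expected counts in the HL-60 controls, and no fold change is given for it. ANXA8 alone rose by 3.18 on the log2 scale at 500 pM (adjusted p = 7.64e-09) and by 1.52 at 112.7 pM, against 3.88 and 1.95 for the sum.

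**Figure D2:**
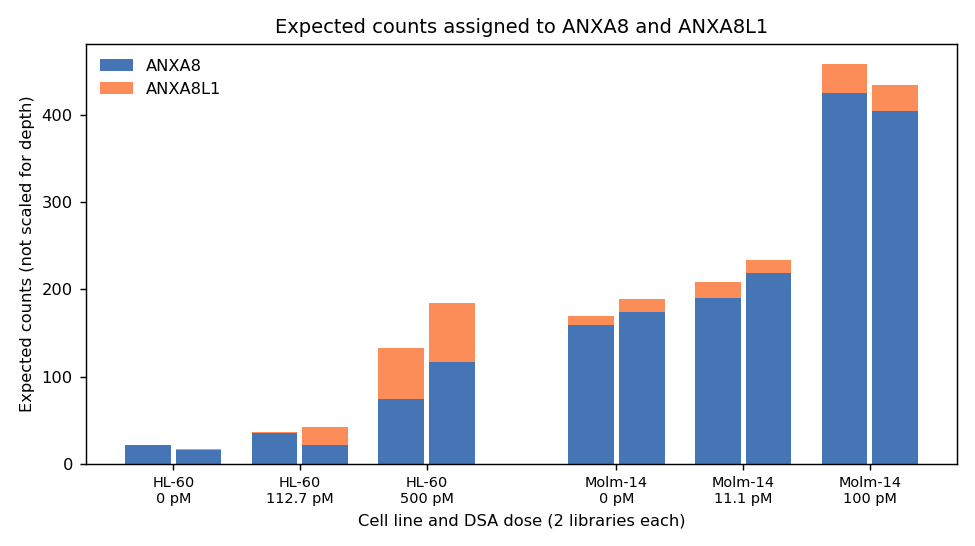
Expected counts, not scaled for depth, that RSEM assigned to ANXA8 and ANXA8L1 (stacked bars) in each of the 12 libraries. ANXA8L1 takes 1.53% and 49.6% in the 2 HL-60 libraries at 112.7 pM, and between 5.75% and 8.84% in all Molm-14 libraries.

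ANXA1 had 108 and 114 TPM in HL-60 controls, 134 and 140 TPM at 112.7 pM and 265 and 279 TPM at 500 pM. It was the second most abundant annexin at 500 pM, after ANXA6, and the groups did not overlap. The log2 fold change was 0.35 ± 0.05 at 112.7 pM and 1.28 ± 0.05 at 500 pM (adjusted p = 5.52e-06 and 1.88e-14).

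ANXA6 had 172 and 154 TPM in the controls, 248 and 238 TPM at 112.7 pM and 321 and 286 TPM at 500 pM, a log2 fold change of 0.52 ± 0.04 and then 0.83 ± 0.04 (adjusted p = 7.14e-09 and 9.81e-13). ANXA5 had 106 and 100 TPM in the controls, 123 and 123 TPM at 112.7 pM and 162 and 160 TPM at 500 pM, a log2 fold change of 0.30 ± 0.04 and then 0.62 ± 0.04 (adjusted p = 2.33e-06 and 2.44e-11). For both genes every library at a dose lay above every library at the dose before.

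ANXA4 had 14.8 and 12.4 TPM in the controls, 20.9 and 18.7 TPM at 112.7 pM and 28.0 and 26.7 TPM at 500 pM. The log2 fold change was 0.55 ± 0.06 and then 0.94 ± 0.06 (adjusted p = 3.62e-07 and 1.70e-11), and the highest level in HL-60 cells remained far below the lowest in Molm-14 cells, 482 TPM. AAK1, a kinase gene on the opposite strand, overlaps ANXA4, and no source used here says whether reads were counted by strand. AAK1 had 39.4 and 47.2 CPM at 500 pM against 27.1 and 24.8 CPM in the controls (log2 fold change 0.76, adjusted p = 6.56e-09) and was not called at 112.7 pM (0.09, adjusted p = 0.306). Its part in the ANXA4 values of HL-60 cells was not tested.

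ANXA7, known from granule fusion, and ANXA11, which binds PDCD6 and tethers RNA granules to lysosomes, differed least between the groups. ANXA7 had 73.7 and 71.0 TPM in the controls, 76.1 and 71.5 TPM at 112.7 pM and 71.5 and 72.2 TPM at 500 pM, and was called at neither dose. ANXA11 had 136 and 143 TPM in the controls, 174 and 162 TPM at 112.7 pM and 141 and 150 TPM at 500 pM. Its log2 fold change was 0.14 ± 0.03 at 112.7 pM (adjusted p = 0.00184) and 0.01 ± 0.03 at 500 pM (adjusted p = 0.859).

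The direction of the small difference in ANXA7 at 500 pM depended on the scaling. ANXA7 was at -0.05 with TMM, 0.007 with RLE factors or DESeq2 and 0.138 with total counts alone. ANXA11 was above 0 under each scaling, and at 0.191 with total counts alone, a scaling under which both were called and which moved the median of all genes to 0.176. ANXA3, known as an annexin of neutrophil granules, had 1.0 and 0.98 TPM in the controls, 1.0 and 1.40 TPM at 112.7 pM and 1.08 and 1.17 TPM at 500 pM, from 15 to 63 counts per library, and was not called at either dose (adjusted p = 0.643 and 0.568).

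Between the doses in HL-60 cells, 6 members were higher at 500 than at 112.7 pM and 1, ANXA11, was lower (25.9% and 26.7% of all genes). By more than 2-fold, 2 were higher and none lower (8.15% and 0.723% of all genes). The log2 difference was 2.56 for ANXA2, 1.93 for ANXA8 + ANXA8L1, 0.93 for ANXA1, 0.39 for ANXA4, 0.32 for ANXA5 and 0.31 for ANXA6, and -0.13 ± 0.03 for ANXA11 (adjusted p = 0.00335), which with total counts alone was -0.02 and not called. The median over the members was 0.36 and that over all genes 0.002.

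**Figure D3:**
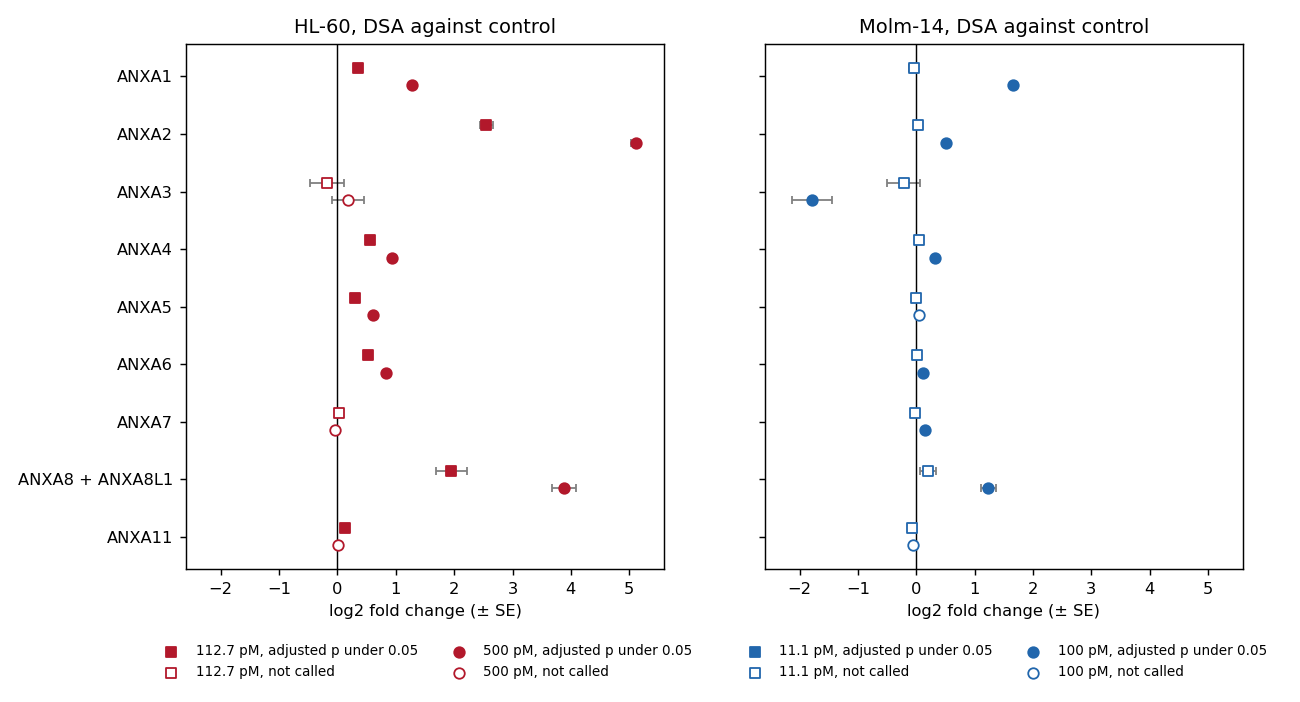
Log2 fold change against the controls of the same line with its SE, from edgeR on counts scaled by TMM, for the low dose (squares) and the high dose (circles) in HL-60 (left) and Molm-14 cells (right); filled symbols have an adjusted p under 0.05. ANXA2 reaches 5.11 in HL-60 and 0.51 in Molm-14 cells, ANXA3 is at -1.79 in Molm-14 cells at 100 pM, and the sign of ANXA7 in HL-60 cells at 500 pM changes with the scaling.

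In Molm-14 cells 11.1 pM DSA left the annexins close to the controls. None was called higher or lower by edgeR, DESeq2 or limma-voom (0.969% and 0.238% of all genes by edgeR, and 0.00745% and 0.0149% by more than 2-fold). The median log2 fold change was -0.006 for the members and -0.005 for all genes. At an unadjusted p under 0.05, 0 members were higher and 1 was lower in edgeR, ANXA11 (log2 fold change -0.07 ± 0.03, unadjusted p = 0.0462), and DESeq2 and limma-voom gave the same counts. The largest differences in size, -0.22 ± 0.28 for ANXA3 and 0.20 ± 0.14 for ANXA8 + ANXA8L1, were within 1.5 SE of 0.

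At 100 pM, 6 members were higher and 1 was lower than in the Molm-14 controls (22.9% and 21.9% of all genes). Of these, 2 were higher and 1 lower by more than 2-fold (3.29% and 0.73% of all genes). The median log2 fold change was 0.14 for the members and 0.004 for all genes.

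ANXA1 rose most. It had 17.9 and 16.9 TPM in the controls, 16.0 and 17.0 TPM at 11.1 pM and 55.3 and 54.0 TPM at 100 pM. The libraries at 100 pM stood far above the others, which overlapped, and the log2 fold change was 1.66 ± 0.06 (adjusted p = 1.98e-13), or 3.16-fold.

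ANXA8 + ANXA8L1 had 3.24 and 3.43 TPM in the controls, 3.82 and 4.19 TPM at 11.1 pM and 7.56 and 7.85 TPM at 100 pM (log2 fold change at 100 pM 1.23 ± 0.13, adjusted p = 2.31e-07). ANXA2 had 60.9 and 60.4 TPM in the controls, 63.2 and 59.4 TPM at 11.1 pM and 83.7 and 85.0 TPM at 100 pM (0.51 ± 0.04, adjusted p = 2.66e-08). For ANXA2 the low dose overlapped the controls and the high dose overlapped neither.

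ANXA3 was the only member that fell. It had 1.18 and 1.44 TPM in the controls, 0.750 and 0.990 TPM at 11.1 pM and 0.370 and 0.360 TPM at 100 pM. The counts were 12 and 9 at 100 pM against 29 and 40 in the controls, and the log2 fold change was -1.79 ± 0.34 (adjusted p = 0.000311), the widest error in the family. At 11.1 pM the TPM did not overlap the controls but the CPM did, at 0.864 and 0.956 against 0.917 and 1.20. The transcript length that RSEM used for ANXA3 averaged 1302 bases at 11.1 pM and 1039 bases in the controls.

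ANXA4 had 492 and 489 TPM in the Molm-14 controls, 497 and 482 TPM at 11.1 pM and 547 and 569 TPM at 100 pM (log2 fold change 0.33 ± 0.03, adjusted p = 9.09e-08). The remaining differences were small. ANXA7 was higher at 100 pM by 0.14 ± 0.04 (adjusted p = 0.00659) and ANXA6 by 0.12 ± 0.04 (adjusted p = 0.0383). The call of ANXA6 was lost without Molm-14 control replicate 2 or either library at 100 pM, at log2 fold changes of 0.09 to 0.12, and also with all gene types (0.10) or thinned libraries (0.10), and that of ANXA7 without control replicate 2 (0.11) or replicate 2 at 100 pM (0.09). ANXA5 (109 and 115 TPM at 100 pM, 110 and 111 TPM in the controls) and ANXA11 (147 and 144 TPM, against 150 and 154 TPM) were not called.

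Between the doses in Molm-14 cells, 5 members were higher at 100 than at 11.1 pM and 1, ANXA3, was lower (19.6% and 18.4% of all genes). By more than 2-fold, 2 were higher and 1 lower (2.27% and 0.618% of all genes). ANXA1 differed by 1.71 ± 0.06, ANXA8 + ANXA8L1 by 1.03 ± 0.12, ANXA2 by 0.48 ± 0.04, ANXA4 by 0.29 ± 0.03, ANXA7 by 0.17 ± 0.04 and ANXA3 by -1.58 ± 0.35 on the log2 scale. Without replicate 2 at 100 pM, ANXA7 was at 0.11 and was not called (adjusted p = 0.0658). With all libraries thinned to the smallest total, ANXA3 was at -0.93 and was no longer called (adjusted p = 0.121).

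The changes at the high doses, 500 pM in HL-60 and 100 pM in Molm-14 cells, were then compared between the lines by an interaction term. The signed log2 change was higher in HL-60 for 6 members and lower for 2 (25.1% and 30.3% of all genes), by more than 2-fold for 3 and 0 (10.1% and 2.21%), with a median difference of 0.62 against -0.02 for all genes. ANXA2 had the largest difference (4.60 ± 0.10, adjusted p = 8.79e-17), followed by ANXA8 + ANXA8L1 (2.65 ± 0.26, adjusted p = 6.06e-08, or 1.95 for ANXA8 alone) and ANXA3 (1.97 ± 0.45, adjusted p = 0.000943), which fell in Molm-14 cells. ANXA6, ANXA4 and ANXA5 differed by 0.71, 0.62 and 0.57. ANXA1 rose more in Molm-14 cells (-0.38 ± 0.08, adjusted p = 0.000413). ANXA7 was at 0.14 in Molm-14 cells and at -0.05, not called, in HL-60 cells. Its difference was called lower (-0.19 ± 0.06, adjusted p = 0.00899). ANXA7 lost this call with DESeq2 (-0.13), RLE factors (-0.13), total counts alone (-0.04) and without Molm-14 replicate 2 at 100 pM (-0.14).

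Set in order by TPM, ANXA2 had 1.56 ± 0.32 (SD, n = 2) in HL-60 controls, 8.56 ± 0.06 in HL-60 cells at 112.7 pM, 55.4 ± 1.66 in HL-60 cells at 500 pM, 60.6 ± 0.38 in Molm-14 controls, 61.3 ± 2.69 in Molm-14 cells at 11.1 pM and 84.3 ± 0.88 in Molm-14 cells at 100 pM. The Molm-14 controls and low dose were the only neighbours in this order whose libraries overlapped. HL-60 cells at 500 pM thus stood next to the Molm-14 controls in ANXA2, a pair for which no test was run. ANXA1 was ordered the other way, and its lowest level in HL-60 cells (108 TPM) was above its highest in Molm-14 cells (55.3 TPM).

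The make-up of the annexin pool followed these levels. ANXA2 was 5.17% and 5.46% of the annexin TPM in HL-60 cells at 500 pM, against 0.217% and 0.298% in the controls. ANXA11 was 13.5% and 14.5% at 500 pM against 22.1% and 24.0% in the controls, and was itself not called at 500 pM. The summed TPM was 605 ± 11.3 in HL-60 controls, 775 ± 17.3 at 112.7 pM and 1042 ± 8.58 at 500 pM. In Molm-14 cells it was 983 ± 4.98, 977 ± 22.4 and 1119 ± 21.9 at 0, 11.1 and 100 pM, and ANXA4 remained between 49.5% and 50.2% of it in all 6 libraries. TPM is scaled to the library total. With total counts alone, the median log2 fold change of all genes was 0.176 in HL-60 cells at 500 pM, against 0 with TMM. In Molm-14 cells at 100 pM it was 0.037, against 0.004. The part of such a shift in the summed TPM was not tested.

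**Figure D4:**
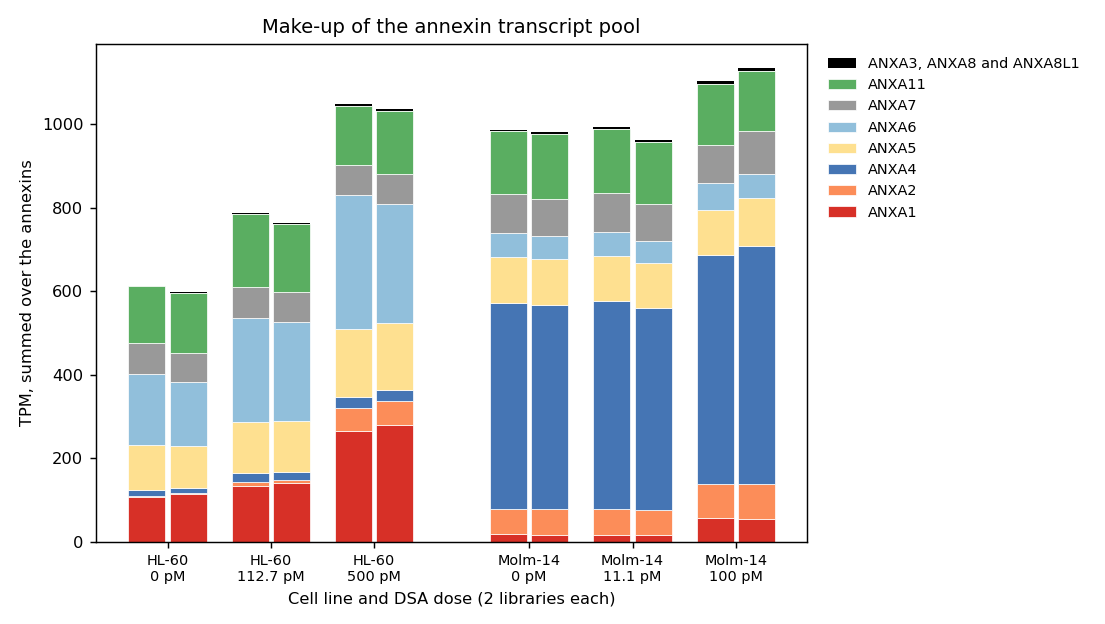
TPM summed over the annexins in each of the 12 libraries, stacked by gene. The HL-60 sum averages 605 in the controls and 1042 at 500 pM, with ANXA1 and ANXA6 the largest parts at 500 pM, and ANXA4 is about as large as all other annexins together in every Molm-14 library.

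Genes for proteins that bind annexins were read next. Of 8, 5 rose and 2 fell with 500 pM DSA in HL-60 cells (35.8% and 37.8% of all genes), and 5 were higher and none lower in Molm-14 cells at 100 pM (22.9% and 21.9% of all genes). S100A10, the small EF-hand protein that joins a pair of annexin A2 molecules, had 15.8 and 15.6 CPM in HL-60 controls, 35.9 and 38.4 CPM at 112.7 pM and 101 and 96.2 CPM at 500 pM. Its log2 fold change at 500 pM was 2.66 ± 0.05 (adjusted p = 1.22e-17), against 0.29 ± 0.05 in Molm-14 cells at 100 pM (adjusted p = 7.11e-05), and the difference between the lines was 2.36 ± 0.07 (adjusted p = 1.43e-14).

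S100A4 and S100A6, which also bind annexin A2 and in the case of S100A6 annexin A11, rose by 1.91 and 1.85 in HL-60 and by 1.13 and 0.80 in Molm-14 cells on the log2 scale. AHNAK, a large scaffold that the annexin A2 and S100A10 complex holds at the membrane, rose by 1.51 and 0.70. SRI, which encodes the annexin A7 partner sorcin, fell in HL-60 cells (24.2 ± 0.75 CPM at 500 pM, 50.8 ± 1.73 CPM in the controls, log2 fold change -1.07 ± 0.07, adjusted p = 1.46e-10) and was not called in Molm-14 cells.

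**Figure D5:**
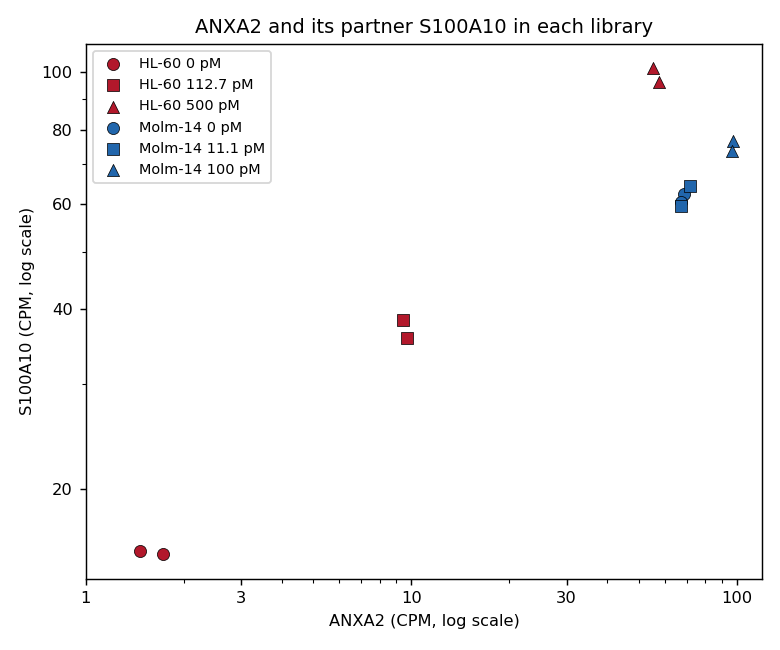
CPM of S100A10 against CPM of ANXA2 in each library, both on log axes, with HL-60 in red, Molm-14 in blue and the dose given by the symbol. The 3 HL-60 groups lie apart along both axes, and HL-60 cells at 500 pM pass all Molm-14 libraries in S100A10 (96.2 and 101 CPM, against at most 76.6 CPM) but not in ANXA2.

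For ANXA1, the receptors and proteases of its known pathway were read. FPR1 and FPR2, the formyl peptide receptors, rose in HL-60 cells at 500 pM, to 11.6 and 10.9 CPM against 1.29 and 1.05 CPM in the controls for FPR1 (log2 fold change 3.28 ± 0.20, adjusted p = 2.42e-11) and to 25.6 and 25.9 CPM against 13.3 and 12.3 CPM for FPR2 (1.01 ± 0.09, adjusted p = 6.44e-09). In Molm-14 cells both were called higher at 100 pM, yet at 0.0554 to 0.241 CPM, and with FPR2 at 0 in both controls, so that no fold change is given. PRTN3 and ELANE, neutrophil serine proteases that can cleave annexin A1, fell in HL-60 cells at 500 pM by 2.32 and 1.78 on the log2 scale and were not called in Molm-14 cells.

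Of the genes of plasminogen activation, the surface reaction to which annexin A2 contributes, PLAU, the urokinase, rose by 0.75 ± 0.05 in HL-60 cells at 500 pM (adjusted p = 9.88e-11) and by 0.90 ± 0.05 in Molm-14 cells at 100 pM (adjusted p = 1.64e-11) on the log2 scale. PLAUR, the urokinase receptor, rose by 0.96 ± 0.06 in HL-60 cells (adjusted p = 1.37e-11) and was at 0.11 ± 0.05 in Molm-14 cells (adjusted p = 0.0959).

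Of 10 genes of plasma membrane repair, 8 rose and 1 fell in HL-60 cells at 500 pM (35.8% and 37.8% of all genes), and 6 rose and 1 fell in Molm-14 cells at 100 pM (22.9% and 21.9%). The ferlins MYOF and DYSF, calcium-sensing proteins of vesicle fusion, rose in HL-60 cells at 500 pM by 2.58 and 2.21 on the log2 scale. MYOF had 2.34 and 2.09 CPM there, against 0.349 and 0.373 CPM in the controls. DYSF had 3.32 and 3.75 CPM, against 0.697 and 0.814 CPM, so that both rose from low levels. In Molm-14 cells they rose by 1.16 and 0.13 at 100 pM, and DYSF stood at 95.9 and 94.4 CPM at 100 pM and at 87.3 and 86.2 CPM in the controls. CAPN2, a calpain subunit, rose by 1.97 and 0.52. For 10 tested genes that flip phosphatidylserine between leaflets, the ligand of annexin A5, calls went both ways, with 3 higher and 4 lower in HL-60 and 3 higher and 2 lower in Molm-14 cells, shares near those of all genes (35.8% and 37.8% in HL-60, 22.9% and 21.9% in Molm-14).

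Markers of maturation moved in the same libraries. Of 7 tested markers of mature monocytes or macrophages out of 10, all 7 were called higher in HL-60 cells at 500 pM (35.8% of all genes). Among them MS4A7 was near 0 in HL-60 cells, at 0.0936 and 0.277 CPM against 0.0805 and 0.0170 CPM in the controls. In Molm-14 cells at 100 pM MS4A7 had 97.05 and 104.7 CPM. There, 4 of the 7 rose and 1 fell (22.9% and 21.9% of all genes). The summed level of the 10 genes was 251 and 252 CPM in HL-60 cells at 500 pM against 69.6 and 69.9 CPM in the controls, and 331 and 338 CPM in Molm-14 cells at 100 pM against 187 and 186 CPM in the controls. CD14 had 20.8 and 23.1 CPM in HL-60 cells at 500 pM against 1.10 and 0.933 CPM in the controls and was at most 0.181 CPM in Molm-14 cells. FCGR3A was at 0 in all libraries.

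For granulocytes, 5 of 9 markers were tested and 4 rose in either line (35.8% of all genes in HL-60, 22.9% in Molm-14). The sum of the 9 genes was 156 and 155 CPM at 500 pM against 88.4 and 88.6 CPM in HL-60 controls. It was 124 and 124 CPM at 100 pM against 67.6 and 67.9 CPM in Molm-14 controls, while LTF and CEACAM8 stayed at or near 0 in both lines. In HL-60 cells MMP9 averaged 55.8 CPM at 500 pM and 4.90 CPM in the controls, whereas CSF3R averaged 62.0 and 65.75 CPM and was not called. In Molm-14 cells CSF3R made up most of the sum, averaging 115 CPM at 100 pM and 64.0 CPM in the controls. The 5 promyelocyte genes all fell in HL-60 cells at 500 pM, their sum being 6594 and 6614 CPM against 18370 and 18630 CPM in the controls. In Molm-14 cells at 100 pM, AZU1 (0.42) and CTSG (0.23) rose and MPO fell (-0.34), with a sum of 4235 and 4109 CPM against 3542 and 3651 CPM in the controls. The part of these shifts in the annexin values was not tested, and in bulk RNA fewer cells of a type and less RNA per cell cannot be told apart.

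ANXA2 had the widest range of group means of all members, 5.87 on the log2 scale, and the genes most like it were looked up by Pearson's r of log2 CPM over the 12 libraries, among 11280 protein-coding genes that averaged 50 counts or more. The 5 closest were CACNA2D4 (r = 0.996), PROCR (0.995), CRIP1, GAS2L1 and BST2 (0.994 each). CRIP1, for example, had 2.72, 7.80 and 23.0 CPM in HL-60 cells at 0, 112.7 and 500 pM and 35.4, 34.4 and 38.6 CPM in Molm-14 cells at 0, 11.1 and 100 pM. Within the family, r between ANXA2 and ANXA8 + ANXA8L1 was 0.977, and ANXA1 went with ANXA6 (r = 0.931) and against ANXA4 (r = -0.837). The 12 points share 2 lines and 6 groups, so these values describe the pattern of group means and carry no test. Within each line ANXA1 and ANXA4 both rose at the high dose. Their log2 fold changes were 1.28 and 0.94 in HL-60 and 1.66 and 0.33 in Molm-14 cells.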

How the data were processed

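RNA of 12 libraries was sequenced. The authors trimmed reads with Trim Galore (0.60), mapped them to hg38 with STAR (2.7) and ran RSEM (1.31) on GENCODE release 31, and the deposited expected counts, TPM and weighted transcript lengths per gene were used (FPKM was not). Symbols came from GENCODE release 44 (60261 of 60754 identifiers matched, 493 did not). Expected counts were rounded. ANXA8 and ANXA8L1 were summed, and 13421 protein-coding genes of level 1 or 2 that passed filterByExpr were tested with edgeR 4.0.16 in R 4.3.3 (TMM, glmQLFit, glmQLFTest, 1 mean per group over all 12 libraries, Benjamini-Hochberg adjustment over all genes tested). The SE is the log2 fold change divided by the square root of F. A gene was called at an adjusted p under 0.05. The study itself used limma-voom.

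Replicate libraries differed by more than counting noise (chi-square per gene 2.19 to 3.74) and were kept apart. Deviations of same-numbered libraries correlated above 0.1 in only 3 of 15 pairs of groups, so replicate numbers were not treated as pairs. Few counts, as for ANXA3 and ANXA8, give the widest errors.

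The members and gene lists were chosen with earlier results of these data known. Named genes are every member, up to 4 genes per list with the smallest p at a high dose, the 5 genes most like the member of widest range, and overlapping or near-identical partners. MPO, HOXA9, CD14, DYSF, SRI, FCGR3A, LTF and CEACAM8 were named after their values were seen wherever they fall outside this rule. Alternatives were DESeq2 1.42.0, limma-voom (limma 3.58.1), RLE factors, total counts, no filter, a stricter filter (average of 50 counts or more), all gene types, only the groups compared, thinning to the smallest total (seed 11), the replicate block, summing ANXA2 with its pseudogenes, separating ANXA8 from ANXA8L1, and leaving out each library. Some listed genes are not reported here.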

Additional observations from a re-analysis of the deposited data

Results flagged for a closer look

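For 8 of the 9 values the change with high DSA differed between the lines by the interaction term in edgeR, and each value here is the log2 change in HL-60 cells at 500 pM minus that in Molm-14 cells at 100 pM. ANXA2 (4.6), ANXA8 + ANXA8L1 (2.65), ANXA6 (0.71), ANXA4 (0.62) and ANXA5 (0.57) rose more in HL-60 cells. For ANXA3 the difference (1.97) stands beside a fall in Molm-14 cells (-1.79) and no call in HL-60 cells (0.18). ANXA1 (-0.38) rose more in Molm-14 cells, and ANXA7 (-0.19) was called higher in Molm-14 and not in HL-60 cells. Medium and serum differed with the line and cannot be told apart from it. Dose differed too, and at the nearest doses, 112.7 pM in HL-60 and 100 pM in Molm-14 cells, the difference between the lines was not tested. There the log2 fold changes were 2.55 and 0.51 for ANXA2, 0.35 and 1.66 for ANXA1, and 1.95 and 1.23 for ANXA8 + ANXA8L1. Groups of 2 libraries are too small to look for single outlying libraries.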

How the results depend on the processing

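Over 24 alternatives, 12 of them leaving out 1 library, 0 of 1180 values for called members changed sign, and 15 lost their call. Of 384 counts of called members, 8, all of lower members, moved by over 1.5 times, and smaller shifts are not listed. The count of lower members was 0 instead of 1 in Molm-14 cells at 100 pM, against controls and against 11.1 pM, under the filter of 50 counts on average, where ANXA3 was not tested and has no value, and 0 with thinning against 11.1 pM. With total counts alone it was 0 instead of 1 for HL-60 cells at 500 against 112.7 pM. For the difference between the lines it was 1 instead of 2 with DESeq2, RLE factors, total counts alone and without Molm-14 replicate 2 at 100 pM (range over left-out libraries 1 to 2).

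Uncalled values changed sign in 23 of 548 cases. In Molm-14 cells at 11.1 pM, ANXA5 was 0.011 with total counts and 0.006 with thinning, and ANXA6 was -0.003 with no filter, -0.007 with all gene types and -0.01 with thinning. Leaving out 1 library there gave -0.028 to 0.014 for ANXA5, -0.061 to 0.072 for ANXA6, -0.054 to 0.004 for ANXA7 and -0.019 to 0.073 for ANXA2. In HL-60 cells, ANXA3 at 112.7 pM ran from -0.462 to 0.011 over left-out libraries. At 500 pM, ANXA7 was 0.007 with DESeq2 and RLE factors, 0.138 with total counts and 0.009 under the filter of 50 counts, and 0.033 against 112.7 pM with total counts. ANXA11 was -0.013 with no filter, -0.02 with all gene types and -0.01 to 0.014 over left-out libraries. ANXA3 between the controls of the lines ran from -0.259 to 0.124. The cause was not tested.

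Total counts alone split all genes called at 500 pM in HL-60 cells into 6303 higher and 3376 lower, against 4804 and 5075 with TMM, and called 8 members higher instead of 6. For 112.7 pM the split was 4231 and 2696 against 3254 and 3683, for 500 against 112.7 pM 4830 and 2106 against 3474 and 3589, and for the difference between the lines 4538 and 2638 against 3372 and 4067. In Molm-14 cells at 11.1 pM, all genes called were 130 higher and 32 lower, against 309 and 160 with no filter, 208 and 63 in a fit of the groups compared alone and 94 and 41 with DESeq2. Without Molm-14 control replicate 1 they were 3 and 1, without control replicate 2 83 and 13, without replicate 1 at 11.1 pM 63 and 11, without replicate 2 at 11.1 pM 51 and 19, and without HL-60 replicate 1 at 500 pM 49 were lower. The replicate block changed 1 of 88 values, the call of ANXA6 between 100 and 11.1 pM in Molm-14 cells (log2 0.112, adjusted p = 0.0346), and 87 stayed. Replicate numbers were not treated as pairs, although weak correlations between same-numbered libraries cannot exclude a shared batch. Counts of ANXA3 (9 to 63) limit any statement on it.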

Other observations

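Of the other annexins, ANXA9, which lacks the usual calcium sites, had 1.26 and 1.44 CPM in HL-60 controls, 2.84 and 3.23 CPM at 112.7 pM and 6.27 and 5.35 CPM at 500 pM (log2 fold change at 500 pM 2.08 ± 0.19, adjusted p = 1.01e-08 by edgeR), and at most 0.331 CPM in Molm-14 cells. ANXA10 and ANXA13 had 0 counts in all 12 libraries. The transcript length that RSEM weighted by abundance averaged 1369 bases for ANXA11 in HL-60 cells at 112.7 pM and 1512 bases in the controls, and for ANXA4 it was 1257 bases in Molm-14 cells at 100 pM and 1176 bases in the controls.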
